A study of Mus musculus with 6 samples.

Results

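The transcripts of P19 cells carrying the empty pCDNA vector were compared between the aggregated state, after 4 days as aggregates in medium with 5e-07 M all-trans retinoic acid, and the undifferentiated state before it. P19 is a mouse embryonal carcinoma line, a tumour line that resembles cells of the early embryo and grows as undifferentiated cells in a dish. The comparison used 2 of the 6 arrays of the series, 1 per state, and its members were the pair of arrays that the sample labels name as aggregated and undifferentiated vector cells. The other 4 arrays were the vector line in the differentiated state, 2 days after its aggregates were replated, and 3 arrays of P19 cells made to express AICD (a fragment cut from the inner end of the amyloid precursor protein) in the aggregated, differentiated and undifferentiated states. All cells were P19 cells grown in medium with serum, and only aggregated and replated cells had met retinoic acid. The study's text speaks of control lines without saying whether they are single clones or pools, and gives no culture of aggregates without retinoic acid, so aggregation, the time in culture and retinoic acid cannot be told apart. Each group was 1 array, so no difference has a replicate check and no p-value is given. Both undifferentiated arrays lay on slide 1 and the other 4 on slide 2, so slide and state cannot be told apart either.

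Retinoic acid is a derivative of vitamin A that enters cells, is carried by small binding proteins and acts through nuclear receptors that sit on DNA as pairs and switch on target genes when the ligand binds. Cells also make enzymes that break retinoic acid down, and several of these genes are themselves targets, which forms a feedback loop. In the embryo the signal patterns the hindbrain and spinal cord through the Hox genes, and P19 cells aggregated with retinoic acid are a classical model in which embryonal carcinoma cells give rise to neural progenitors, neurons and glia.

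The arrays measured one colour, Cy3, and each level below is the log2 of the processed signal of a probe over that of its array's 75th percentile of spots (786.68 on the aggregated and 529.46 on the undifferentiated array, in scanner units). A difference is the aggregated minus the undifferentiated level on that log2 scale, and levels of different probes are not set against each other. The scanner called 64.31% of spots on the aggregated and 65.03% on the undifferentiated array well above background, and 0 spots were saturated on either. Probes spotted several times scattered by 0.0706 and 0.078 (median SD, log2) on those arrays, and the scanner's own error of a difference had a median of 0.20. These errors cover the scan and not the spread between cultures. Where a gene was well above background on only 1 of the 2 arrays, its fold is a bound, taken against the dimmest signal called above background on the dim array or against the dim probe's own signal where that was higher. Since RNA was measured in bulk, fewer cells of a type and less RNA per cell cannot be told apart anywhere below.

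A total of 13501 genes passed the background call on either array or both. In aggregated cells 1714 of them (12.7%) were higher by 2-fold or more, 3122 (23.1%) were lower by as much, and 8665 lay within 2-fold. Counts in all gene lists below are best read beside these shares of all genes, 12.7% higher and 23.1% lower. Bounds made up 285 of the higher and 458 of the lower genes. At 4-fold the counts were 676 (5.01%) higher and 822 (6.09%) lower, and at 10-fold they were 252 in each direction (1.87% each). The median gene had a difference of -0.34, so the split leaned to the lower side: 35.4% of the genes at least 2-fold apart were higher. Taken relative to that median gene, 2475 genes were higher and 1931 lower, a share of 56.2% higher, and single values are best read against the shift of -0.34. For 4242 genes with several probes measured on both arrays, the differences of a gene's probes spanned a median of 0.35. All probes pointed the same way in 1092 of 1176 such genes that were 2-fold apart.

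**Figure D1:**
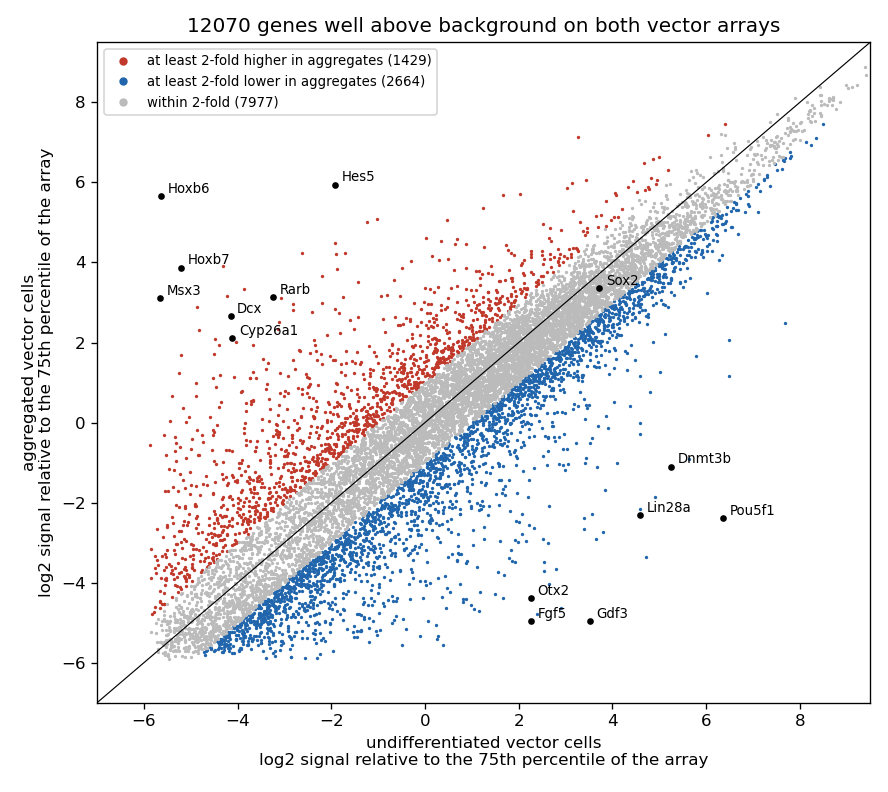
Each point is a gene well above background on both vector arrays, with its level in aggregated cells (vertical axis) against its level in undifferentiated cells (horizontal axis), both as log2 signal scaled to the 75th percentile, and the line marks equal levels. Hoxb6, Hoxb7 and Msx3 lie far above the line, Pou5f1 and Gdf3 far below it, and Sox2 close to it.

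The 20 highest differences among genes measured on both arrays ran up to that of Hoxb6. Hoxb6, a homeobox gene of the trunk, had a level of 5.65 in aggregated and -5.64 in undifferentiated cells, a difference of 11.30. Zfp503, a zinc finger repressor of the developing brain, had 3.91 in aggregated and -4.31 in undifferentiated cells. Dach1, a transcriptional cofactor of eye and limb development, had 1.93 in aggregated and -4.40 in undifferentiated cells, a difference of 6.33 with 1.97 on a second probe. Emid1, an extracellular protein, had a difference of 7.77, and Nkain4, a membrane protein that interacts with the sodium pump, one of 6.23 with 2.89 on a second probe. Most other genes among the 20 highest are described with their groups below. The levels of the 20 in undifferentiated cells lay between -5.65 for Msx3 and -1.24 for Dhrs3. Picking genes by their largest difference favours such low levels.

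Lower genes of the same rank included enzymes, carriers and secreted factors of the undifferentiated cells. Enpp3, an ectonucleotide phosphodiesterase, had -3.35 in aggregated and 4.71 in undifferentiated cells, a difference of -8.06, and its relative Enpp2, which makes lysophosphatidic acid, one of -6.24. Trh, the precursor of thyrotropin-releasing hormone, had -1.87 in aggregated and 4.91 in undifferentiated cells. The collagen gene Col8a2 had a difference of -7.55, against -1.29 in the AICD line. Pim2, a kinase that favours survival, differed by -6.57 with a range of -6.57 to -6.47 over 3 probes. Differences between -6.52 and -5.94 were also measured for the carbonyl reductase Cbr3, the calcitonin receptor Calcr (-3.21 on its second probe), Gch1, the first enzyme of tetrahydrobiopterin synthesis (-4.83 on its second probe), the zinc and manganese carrier Slc39a8 (-3.57 on its second probe) and the matrix protein Spon1.

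Some genes dropped out of detection in the aggregates. Trap1a, an X-linked tumour antigen gene, had 2.99 in undifferentiated cells and was not well above background in aggregated cells, at least 475-fold lower. The cytokine receptor subunit Il20ra was at least 336-fold lower, and the serine protease inhibitor Spint1 at least 134-fold lower. Eras, an X-linked Ras-like gene of embryonic stem cells, was at least 97.2-fold lower. Bounds between 72.3 and 89.2 were found for the protease Klk8, the B-cell adaptor Blnk, the neuropeptide gene Npy and the nucleotide sugar carrier Slc35d3. The cytochromes Cyp2b13 and Cyp2b9 were at least 170-fold and at least 160-fold lower, and since these are near copies of each other, a probe of either may read both.

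Retinoid genes divided by role. Of 32 list members 29 were measured, 11 at least 2-fold higher (12.7% of all genes) and 8 lower (23.1% of all genes), with a median difference of 0.50 against -0.34 over all genes. The enzymes Cyp26a1, Cyp26b1 and Dhrs3, which clear retinoic acid or its precursor retinal, were higher. Cyp26a1, which oxidises retinoic acid, had a level of 2.10 in aggregated and -4.12 in undifferentiated cells, a difference of 6.22. Cyp26b1, of the same family, had 3.50 in aggregated cells and was not well above background in undifferentiated cells, at least 673-fold higher. Dhrs3, which turns retinal back into retinol, had 5.02 in aggregated and -1.24 in undifferentiated cells, a difference of 6.26 that its second probe gave as 6.13. Each was thus bright in the aggregates and low before them.

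Receptors and binding proteins differed in direction among themselves. Rarb, the retinoic acid receptor beta, had 3.13 in aggregated and -3.25 in undifferentiated cells, a difference of 6.39, and Rara, the alpha receptor, differed by 1.57. Rarg, the gamma receptor, was not well above background in aggregated cells and had -2.29 in undifferentiated cells, at least 11.2-fold lower, with -1.71 on another probe. The partner receptors had differences of 0.97 for Rxra, 0.28 for Rxrb and -5.29 for Rxrg. Both cellular retinoic acid binding proteins were higher, Crabp2 by 3.67 and Crabp1 by 2.23. The secreted carrier Rbp4 differed by -2.43, and Stra6, the receptor that takes up retinol from it, by -2.27. Enzymes of the forward route were not raised: Rdh10, which makes retinal, differed by -1.51, Aldh1a1 by -1.19 and Aldh1a2 by 0.31, and Aldh1a3 was not well above background on either array. Other measured members were Nr2f2 (3.47) and Nr2f1 (at least 25.5-fold higher), orphan receptors of the COUP family, Nr6a1 (-3.0), the germ cell nuclear factor, the transglutaminase Tgm2 (-2.59, with -0.72 on another probe), Rai1 (1.12), Nrip1 (0.89), Ncoa2 (0.67), Rdh11 (0.50), Dgat1 (0.14), Rai14 (-0.13), Rbp2 (-0.72) and Stra8, which was detected in undifferentiated cells alone with a bound of 1.27-fold. Cyp26c1 had no matching probe, and Lrat was not well above background on either array.

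The 4 stretches of promoter shown here and with the Notch and Wnt genes lie just before the start site and come from RefSeq (build GRCm38.p6), and these were picked after the values were seen, for genes with large differences whose window holds a known response motif. Retinoic acid receptors bind pairs of a 6-base word, and the search took AGGTCA or its variant GGGTCA, and likewise AGTTCA or its variant GGTTCA. Both words had to lie in the same orientation, 5 bases apart, on either strand of the window from 250 bases before to 50 after each start. Such a pair stood in 32 of 32851 windows (0.0974%). Capitals mark the pair in the 110 bases before the start of Rarb (chr14:16575477-16575586, minus strand) and Cyp26a1 (chr19:37697698-37697807, plus strand).
Rarb: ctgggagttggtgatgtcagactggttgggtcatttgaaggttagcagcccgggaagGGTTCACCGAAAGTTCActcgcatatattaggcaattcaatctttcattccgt
Cyp26a1: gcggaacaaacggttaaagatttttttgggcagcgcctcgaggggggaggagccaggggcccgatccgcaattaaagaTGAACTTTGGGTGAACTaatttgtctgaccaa
The pair of Rarb covers bases 53 to 37 before the start, and that of Cyp26a1, which reads on the opposite strand, bases 32 to 16 before it.

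Of the 10778 measured genes with a promoter window, 5 held such a pair. Rarb and Cyp26a1 were 2 of them, with the differences of 6.39 and 6.22 given above. The other 3 pairs were read as follows on their own strand, in the biliverdin reductase gene Blvrb, the embryonic globin gene Hbb-y and the cytokine gene Tnfsf13b.
Blvrb: AGTTCAAAGCCAGTTCA
Hbb-y: AGGTCATGGGAGGGTCA
Tnfsf13b: AGTTCAGATGGAGTTCA
Those pairs lie on chromosome 7 for Blvrb and Hbb-y and on chromosome 8 for Tnfsf13b. Blvrb had -0.37 in aggregated and 2.23 in undifferentiated cells, a difference of -2.59. Hbb-y and Tnfsf13b lay within 2-fold, with differences of -0.33 and 0.04. Genes with this pair were therefore found in both directions and in between, and a match in letters is no proof of a bound site.

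Hox genes, the homeobox factors that give cells their position along the body axis, had the largest median difference of the 34 lists. Of 36 with a probe, 26 were measured and 21 were at least 2-fold higher, 1 was lower and 4 lay within 2-fold, and the median difference was 6.03 against -0.34 over all genes. Of the 26, 10 were kept through the aggregated array alone. The median was 4.69 over genes well above background on both arrays, 4.70 under normexp background correction and 4.22 with no filter on background. In the Hoxb cluster on chromosome 11, 9 of 10 measured genes were higher. Hoxb2 had 5.07 in aggregated cells and was not well above background in undifferentiated cells, at least 2005-fold higher. Hoxb5 was at least 1644-fold and Hoxb4 at least 327-fold higher, and Hoxb8 at least 1125-fold, although its second probe differed by 1.92. Hoxb7 had 3.87 in aggregated and -5.21 in undifferentiated cells, a difference of 9.08, Hoxb9 differed by 7.20 and Hoxb3 by 6.20 with 9.51 on another probe. Hoxb1, which marks a single hindbrain segment in the embryo, was only at least 2.50-fold higher. The Hoxb genes were thus dim before aggregation and, apart from Hoxb1 and Hoxb13, bright in aggregates.

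Most measured genes of the other clusters were higher too. On chromosome 6, Hoxa4, Hoxa5 and Hoxa2 were at least 404-fold, 362-fold and 230-fold higher (3.90 on the lowest probe of Hoxa4), Hoxa9 differed by 4.39 and Hoxa7 by 4.22. Hoxa6 differed by 0.94, and Hoxa3 by 0.62 on the probe used and by 5.86 on another. On chromosome 15, Hoxc5 differed by 6.51 and Hoxc9 was at least 6.40-fold higher. On chromosome 2, Hoxd4 differed by 5.87, Hoxd8 by 4.69, Hoxd3 by 4.25 (2.30 on another probe) and Hoxd1 by 4.22, and Hoxd9 had a bound of 1.55-fold.

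Counted by paralog number, 21 of 24 measured genes of paralogs 1 to 9 were higher and 0 lower. Of 11 genes of paralogs 10 to 13 with a probe, which act in the hindmost trunk and limbs, 9 were not well above background on either array, and 0 were higher. Hoxd13 went the other way: it had -2.6 in undifferentiated cells and was not well above background in aggregated cells, at least 9.85-fold lower. Hoxb13 was detected in undifferentiated cells alone with a bound of 1.42-fold. Among partners of Hox proteins, Meis1 was at least 221-fold higher (5.98 on its lowest probe), Meis2 had 4.22 in aggregated and -1.90 in undifferentiated cells, and Pbx4 differed by 1.60. Cdx2, an activator of posterior Hox genes, was at least 3.57-fold higher, with a dim signal of -4.06 in aggregated cells. Cdx1 and Cdx4 were not well above background on either array.

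**Figure D2:**
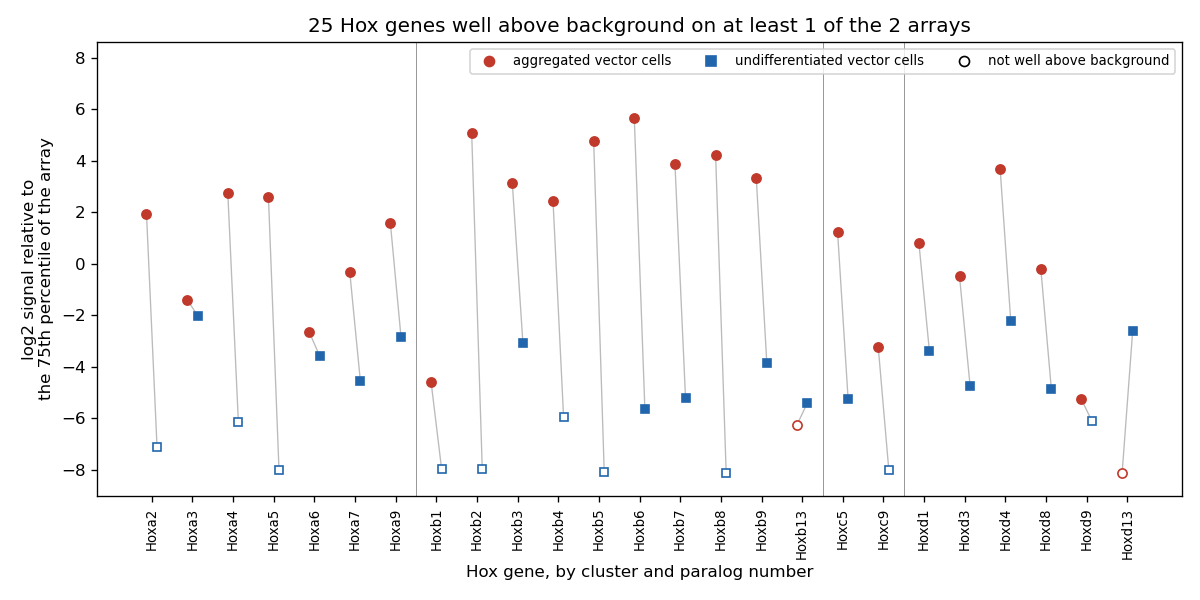
Levels of 25 of the 26 measured Hox genes, in clusters a to d and by paralog number along the horizontal axis, with circles for aggregated and squares for undifferentiated vector cells (vertical axis: log2 signal scaled to the 75th percentile, open where not well above background). The circles stand above the squares for all but Hoxb13 and Hoxd13, and Hoxa3 (0.62) and Hoxa6 (0.94) are closest together among genes measured on both arrays.

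Genes of the pluripotent state were lower as a group, with exceptions. Of 30 with a probe 29 were measured, 20 at least 2-fold lower (23.1% of all genes), 2 higher and 7 within 2-fold, with a median of -2.29. Pou5f1, the POU factor Oct4 that holds cells pluripotent, had -2.40 in aggregated and 6.37 in undifferentiated cells, a difference of -8.77, the lowest of all genes measured on both arrays. Gdf3, a TGF-beta family ligand, had -4.97 in aggregated and 3.52 in undifferentiated cells, a difference of -8.49. Lin28a, an RNA-binding protein that blocks let-7 miRNAs, had -2.32 in aggregated and 4.58 in undifferentiated cells. Each of these genes stood far lower in aggregates, although the scanner still called it well above background there.

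Other members of the list were lower as well. Fgf5, a growth factor of the epiblast, had -4.97 in aggregated and 2.26 in undifferentiated cells, a difference of -7.23. Otx2, which is also a forebrain gene, differed by -6.65, Foxd3 by -5.54, and the cofactor Utf1 by -5.65. Nr0b1, an orphan receptor linked to Oct4, differed by -6.54 in the vector line. Sall4 had -1.05 in aggregated and 3.06 in undifferentiated cells (-1.73 on another probe), and Dppa4 -4.04 in aggregated and 0.75 in undifferentiated cells. Sox2, a pluripotency factor that neural progenitors also use, had 3.37 in aggregated and 3.72 in undifferentiated cells, a difference of -0.36 that is near the median gene. Esrrb, an orphan receptor, and Tbx3, a T-box factor, were the 2 higher members, by 1.41 and 1.88, from dim signals of -3.74 and -2.89. Zfp42 was not well above background on either array, and Nanog had no matching probe.

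DNA methylation enzymes did not share a direction. Dnmt3b, a de novo methyltransferase of early embryonic cells, had -1.1 in aggregated and 5.26 in undifferentiated cells, a difference of -6.36. Its cofactor Dnmt3l differed by -2.29, and Dnmt3a by -1.95 with a range of -2.77 to -0.53 over its probes. Dnmt1, which copies methylation at replication, differed by 0.29. Tet2, an enzyme that oxidises methylcytosine, had -1.46 in aggregated and -4.06 in undifferentiated cells. Of 16 measured genes in the list of methylation and germ cell genes, 6 were lower and 1, Tet2, was higher, and germ cell genes such as Ddx4, Dazl and Sycp1 were not well above background on either array. Rhox5, an X-linked homeobox gene of germ and tumour cells, differed by -3.85.

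Genes of the Nodal, activin and BMP branches differed in direction. Of 30 measured members of the family 12 were lower and 9 higher, with a median of -0.45. Cfc1 and Tdgf1, co-receptors for Nodal, differed by -6.76 and -5.68, and Lefty1, its inhibitor and target, had -2.28 in aggregated and 3.56 in undifferentiated cells. Lefty2 was at least 2.09-fold lower, and the Nodal effector Foxh1 differed by -1.76. Nodal itself had no matching probe. Tgfb1 was at least 27.4-fold lower and the activin trap Fst at least 17.1-fold lower, while Tgfb2 differed by 2.21.

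On the BMP side, Bmp7 had 3.87 in aggregated and -0.49 in undifferentiated cells, a difference of 4.35. Bmp4 differed by 1.20, Bmp6 by -0.40, Bmp5 was detected in undifferentiated cells alone with a bound of 1.41-fold, and Bmp2 was not well above background on either array. The Id genes, which BMP signals switch on and which hold back bHLH factors, differed by 3.59 for Id3, 2.50 for Id2 and 0.57 for Id1. Feedback inhibitors went apart, with 2.33 for Smad6, -2.22 for Smad7 and -1.92 for the decoy receptor Bambi. The extracellular antagonists Chrd and Nog differed by -1.16 and -0.81, and Grem1 was at least 1.74-fold higher. Other members were Gdf1 (1.47), Ltbp1 (1.91, with 0.15 on another probe), Acvr2a (1.05, with 2.12 on another probe), Acvr2b (0.78), Acvr1b (at least 1.62-fold higher), Inhba (-0.93) and Inhbb (-0.21).

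Several targets of FGF signalling were lower. Of 19 measured members 8 were lower and 3 higher, with a median of -0.75. Etv4 had -3.39 in aggregated and 1.80 in undifferentiated cells, a difference of -5.19, and its relative Etv5 was at least 47.9-fold lower (-4.12 on its highest probe). The feedback inhibitor Spry4 was at least 29.8-fold lower, with -1.26 on a second probe, and Dusp6, a phosphatase of the same loop, lay just within 2-fold at -1.0. Among ligands, Fgf15 differed by -4.73 and Fgf8 by -1.95, while Fgf9 differed by 1.1. Besides Fgf9, the higher members were 2 receptors: Fgfr2 had 1.58 in aggregated and -0.44 in undifferentiated cells, and Fgfr3 1.59 and -0.25 in the same order, and other probes gave differences of up to 2.79 and 2.66.

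Regional genes of the nervous system differed in direction. Of 12 measured genes of the forebrain and midbrain, 7 were lower and 3 higher, with a median of -1.45. Otx1 was at least 9.56-fold lower, Lhx2 differed by -2.66 and En2, a midbrain factor, by -1.34. Gbx2, of the border between midbrain and hindbrain, was among the higher genes, with 0.40 in aggregated and -4.39 in undifferentiated cells, a difference of 4.79. Egr2, a factor of hindbrain segments, was lower by -3.84. Six3, Six6 and Hesx1, of the most forward brain, were not well above background on either array.

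Dorsal and intermediate genes of the neural tube were largely higher, 16 of 23 measured with 1 lower and a median of 3.87 (2.04 under normexp background correction). Of the 23, 8 were kept through the aggregated array alone, which favours the higher side. The median was 2.56 over genes well above background on both arrays. Msx3, a homeobox gene of the dorsal tube, had 3.10 in aggregated and -5.65 in undifferentiated cells, a difference of 8.75 with 6.11 on its second probe. Msx1, of the roof plate, had 4.24 in aggregated and -2.63 in undifferentiated cells. Pax3 was at least 162-fold higher and Pax7 at least 13.6-fold, both being dorsal paired-box factors. Pax6, of the intermediate tube and of progenitors, had 0.29 in aggregated and -3.83 in undifferentiated cells. Gdf10 was at least 84.1-fold, Zic4 at least 53.9-fold and Dbx1, which marks the middle of the tube, at least 24.6-fold higher. Wnt1, a signal of the dorsal midline, differed by 4.69. Gsx1 was the lower member, at -1.76, and Lmx1a of the roof plate was not well above background on either array.

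Ventral genes did not follow as a group: 6 of 17 were higher (12.7% of all genes) and 4 lower (23.1% of all genes). Their median was 0.80 (0.0054 under normexp background correction). Shh, the ventral signal, and Nkx2-2, which responds to its highest doses, were not well above background on either array. Foxa2, of the floor plate, differed by 0.07 at signals near background (-5.06 in aggregated and -5.13 in undifferentiated cells). Nkx6-2 had -2.93 in aggregated and 1.91 in undifferentiated cells, a difference of -4.85, and Nkx6-1 differed by -1.39. Gli1, which responds to Shh, was at least 2.72-fold lower. The co-receptors that Shh signalling turns down were the highest members: Boc had 3.84 in aggregated and -1.89 in undifferentiated cells, Gas1 2.84 and -1.93, and Cdon 4.60 and 0.67 in the same order. Gli2 differed by 2.58 (1.13 on another probe), and Olig1 was at least 5.19-fold higher, with a dim signal of -3.52 in aggregated cells.

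Neural progenitor genes were higher in 17 of 23 and lower in 3, with a median of 2.45. Fabp7, a fatty acid binding protein of radial glia, had 5.08 in aggregated and -1.02 in undifferentiated cells, a difference of 6.10. Sox9 differed by 6.08, with 1.59 on its lowest probe, Ptn, a secreted growth factor, by 5.18 and Sox21 by 4.34. Sox1, an early neural factor, differed by 1.30, and Nes, the intermediate filament nestin, by 0.86 from a level that was already 3.31 in undifferentiated cells. Lhx2 (-2.66), the glutamate carrier Slc1a3 (-2.08) and Msi1 (-1.17) were the lower members.

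Notch signalling, in which a ligand on one cell keeps its neighbour from becoming a neuron, had 17 higher genes and 1 lower of 27 measured, with a median of 1.71. Hes5, the main Notch target of neural progenitors, had 5.94 in aggregated and -1.93 in undifferentiated cells, a difference of 7.87. Hes1 differed by 2.6, Hes6, which favours neurons, by 1.96 and the feedback gene Nrarp by 3.29. Hey2 was at least 9.44-fold higher, Hes3 at least 3.26-fold, Heyl at least 1.83-fold, and Hey1 differed by 1.13. Hes7, the clock gene of segmenting mesoderm, was at least 3.53-fold lower. The ligands Dll1 and Dll3 differed by 3.04 and 3.11, and Dll4 was at least 4.24-fold higher, while the ligands Jag1 and Jag2 differed by -0.67 and 0.03. Among receptors the differences were 3.09 for Notch1, 1.09 for Notch3, 0.42 for Notch4 and -0.49 for Notch2. The sugar-adding modulators Lfng and Mfng differed by 2.68 and 2.57 and Rfng by 0.85. Dner, a neuronal membrane protein related to Notch ligands, differed by 6.89, Dtx4 by 3.68 (2.51 on another probe), Dtx1 by 0.49, Mib1 by 1.11, Numb by 0.75 and Maml3 by 0.15.

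The promoter of Hes5 is shown as the window of the highest Notch target. Capitals mark GTGGGAA, the core word bound by RBPJ, the DNA-binding partner of Notch, at bases 83 to 77 before the start (chr4:154960813-154960922, plus strand). The window held 2 matches in all, counting either strand, and the other is not in the stretch shown.
Hes5: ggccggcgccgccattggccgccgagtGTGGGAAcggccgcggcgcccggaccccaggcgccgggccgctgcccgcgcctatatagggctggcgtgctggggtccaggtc
GTGGGAA was found on either strand in 2097 of 32851 windows (6.38%), so the word is common. Counted by gene, 9.18% of higher genes with a window held the word, 6.91% of lower genes and 7.14% of those within 2-fold. A gene counted where any of its windows held the word, so these shares and that of all windows have different units.

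Proneural and neurogenic factors, which commit progenitors to neurons, were higher in 21 of 37 and lower in 5, with a median of 2.34. Of the 37, 13 were kept through the aggregated array alone. The median was 0.79 over the genes well above background on both arrays and 0.82 under normexp background correction. Neurog2 had 0.15 in aggregated cells and was not well above background in undifferentiated cells, at least 63.2-fold higher. Neurog1, Neurog3 and Neurod2 differed by less than 2-fold (0.79, 0.88 and 0.73, the last with -1.35 on another probe). Neurod1 was at least 2.49-fold higher, with a dim signal of -4.58 in aggregated cells, and Atoh1, Neurod4 and Neurod6 were not well above background on either array. Factors of newly formed neurons were bound-limited: Nhlh1 was at least 94.0-fold, Myt1 at least 81.3-fold, Ebf2 at least 53.9-fold, Pou3f2 at least 32.7-fold, Nhlh2 at least 19.7-fold, St18 at least 13.9-fold and Tlx3 at least 10.2-fold higher. Prdm8 differed by 6.58, Onecut1 by 5.11, Onecut2 by 4.85, Lhx5 by 4.44, Ebf3 by 4.26 (1.19 on another probe) and Lhx1 by 4.07. Sox11 differed by 2.95 (0.72 on another probe), Insm1 by 2.34, Myt1l by 2.56 (1.47 on another probe) and Sox4 by 0.60.

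Several factors of motor neurons and related classes were dim. Isl1 and Mnx1 had bounds of 1.76-fold and 1.57-fold in the higher direction, and Lhx3 one of 1.86-fold in the lower direction. Phox2a (-1.65), Pou3f1 (-1.50), Pou4f1 (-1.58) and Rest (-1.70), the repressor of neuronal genes, were lower, and Eomes was at least 10.9-fold lower. Pou4f1 gave 1.71 on another probe and Scrt1, at least 12.5-fold higher, gave -1.03 on another, so their directions are not settled. Lhx4 (-0.95), Isl2 (-0.38), Ebf1 (-0.31) and Pou3f3 (-0.28, with 5.56 on another probe) lay within 2-fold, and Pou4f2 and Tbr1 were not well above background on either array.

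Genes of neuronal structure and synapses were higher in 22 of 41 and lower in 6, with a median of 1.21. Dcx, a microtubule protein of migrating young neurons, had -4.15 in undifferentiated, 2.66 in aggregated and 5.26 in differentiated cells. Chgb, a protein of secretory granules, had -4.82, 2.32 and 4.70 in the same states, and Celf3, a neuronal RNA-binding protein, had -4.04, 2.02 and 4.64. Mapt, the axonal protein tau, had -4.09, 1.13 and 4.85, and Map2, of dendrites, -1.42, 2.63 and 4.50. Other probes of Dcx and Mapt gave differences of 4.51 and 3.32 between aggregated and undifferentiated cells. Each of these 5 genes was therefore higher again on the replated array. Tubb3, a tubulin of neurons, was already at 2.51 in undifferentiated cells and had 4.29 in aggregated and 5.87 in differentiated cells. Stmn2, of growth cones, was lower in the aggregates, with 1.65, 0.24 and 3.43 in the 3 states. Gng3, a G protein subunit (-3.08), Cplx1, of synaptic release (-2.68), the neurofilament Nefh (-1.91) and Prph (at least 10.4-fold lower) were lower too. Snap25, of the vesicle fusion machinery, was near background in the aggregates at -5.54.

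Many transmitter genes were dim in aggregates. Of 29 measured, 10 were higher (12.7% of all genes) and 7 lower (23.1% of all genes), with a median of 0.31. Of these 29 genes, 12 were detected in aggregated cells alone. The glutamate carrier Slc17a6 was not well above background in aggregated cells and had -3.78 in undifferentiated and 2.51 in differentiated cells. Gad1 and Gad2, which make GABA, were at least 4.79-fold and 7.96-fold higher, at -3.64 and -2.90 in aggregated and 0.82 and 0.09 in differentiated cells, with a range of 0.57 to 2.99 over probes of Gad2. The AMPA receptor subunit Gria2 was at least 16.9-fold higher. Axon guidance genes were higher in 17 of 38 and lower in 6, with a median of 0.84. Of the 38, 7 were kept through the aggregated array alone, and the median was 0.71 over genes well above background on both arrays. Dcc, the netrin receptor, was at least 228-fold higher, Epha3 at least 63.3-fold (4.21 on its lowest probe) and Unc5c at least 24.9-fold, and Efnb1 had 3.13 in aggregated and -1.75 in undifferentiated cells. Unc5b and Sema3e were lower, by -3.37 and -3.21 (-4.30 on another probe of Sema3e).

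**Figure D3:**
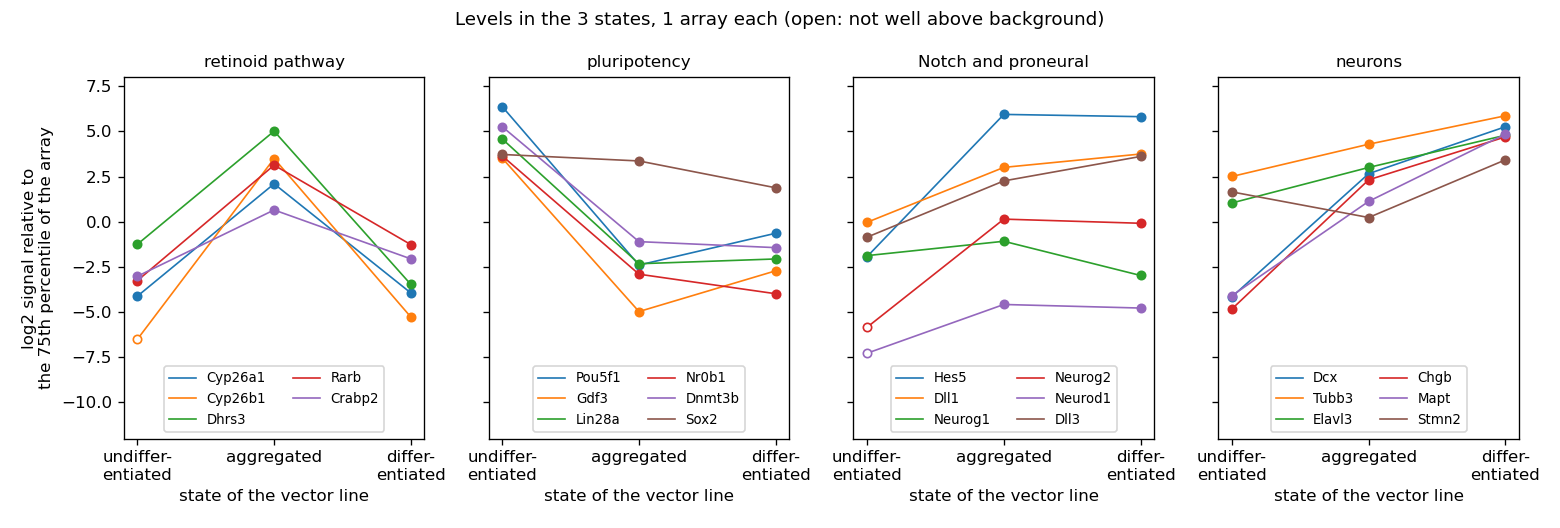
Levels of named genes on the 3 vector arrays in the order undifferentiated, aggregated and differentiated (vertical axis: log2 signal scaled to the 75th percentile, open circles where not well above background, 1 array a state). Cyp26a1 stands at -4.12, 2.10 and -3.94 and Dhrs3 at -1.24, 5.02 and -3.47, while Dcx and Chgb are higher at each state than at the one before and Hes5 stays near the level of the aggregates.

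The third level shows which of the high values of aggregates were also present 2 days after replating. Among retinoid genes, Cyp26b1 had a level of -5.27, Rarb of -1.26 and Crabp2 of -2.05 in differentiated cells, each below its aggregated level. Crabp1 had 0.17, Nr2f2 1.92 and Rai1 1.58 there, each above its aggregated level of -1.35, 1.56 and 0.89 in that order, and Nr2f1 had -1.38 against -1.22 in aggregated cells. Among Hox genes, Hoxb6 (5.11), Hoxb7 (4.73), Hoxb5 (4.59), Hoxb2 (4.04) and Hoxa5 (2.53) stayed bright, while Hoxd1, at 0.83 in aggregated cells, had -4.79. The dorsal genes Msx1 and Gdf10, at 4.24 and 0.50 in aggregated cells, had -1.21 and -4.20. Pou5f1 had -0.64 and Lin28a -2.06 in differentiated cells, each below its undifferentiated level. The differentiated array shares its slide with the aggregated one.

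Wnt genes were higher in 16 of 33 and lower in 6, with a median of 0.81 that turns to -0.44 over the genes well above background on both arrays. Sp5, a zinc finger target of Wnt signals, had 3.24 in aggregated cells and was not well above background in undifferentiated cells, at least 564-fold higher. Axin2, the general feedback target, had 1.82 in aggregated and -2.69 in undifferentiated cells, and Lgr5, a receptor and target, was at least 54.1-fold higher. The ligands Wnt4, Wnt1 and Wnt3 differed by 5.63, 4.69 and 3.93, while Wnt7b and Wnt7a differed by -2.18 and -2.02. Nuclear factors were not higher: Tcf7l1, a repressor at Wnt targets in pluripotent cells, had 1.16 in aggregated and 4.59 in undifferentiated cells, Tcf7 differed by -1.71 and Lef1 by -0.52. Wnt3a and Wnt5a were not well above background on either array.

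The promoter of Sp5 is shown because its difference was the largest of the Wnt genes. Capitals mark the word ATCAAAG, bound by TCF and LEF factors and read here on the opposite strand, at bases 104 to 98 before the start (chr2:70474813-70474922, plus strand).
Sp5: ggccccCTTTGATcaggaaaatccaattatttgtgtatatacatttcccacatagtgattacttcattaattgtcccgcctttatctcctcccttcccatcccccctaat
ATCAAAG was found on either strand in 1225 of 32851 windows (3.73%). Counted by gene, as for Hes5, 3.24% of higher genes with a window held it, 2.79% of lower genes and 3.29% of those within 2-fold.

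Cadherins and other junction genes differed in direction. E-cadherin, Cdh1, had -0.66 in undifferentiated cells and was not well above background in aggregated cells, at least 37.7-fold lower. Epcam had -4.72 in aggregated and 1.15 in undifferentiated cells, a difference of -5.87, the polarity gene Crb3 was at least 14.3-fold lower and the keratin Krt18 differed by -2.68. N-cadherin, Cdh2, of neural epithelium, had 1.52 in aggregated and 0.34 in undifferentiated cells. Pcdh10 differed by 4.24, Pcdh19 by 4.10 (0.50 on another probe), Cdh13 by 2.26 and Cdh11 by 1.5 (3.92 on another probe). In all 9 of 23 junction genes were lower and 7 higher, with a median of -0.55 that turns to 0.53 over the genes well above background on both arrays.

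Of 10 embryonal carcinoma markers 8 were detected in both states and 6 of them were lower in aggregates, Sox2 and Dppa5a lying within 2-fold. Of 7 neuron markers 7 were detected in aggregated and 6 in undifferentiated cells, 5 were higher and Stmn2 was lower.

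Markers of other cell types that aggregates can hold were partly present on both arrays. Of 6 mesenchyme markers all 6 were detected in both states, 3 higher and 1 lower: Col3a1, a fibrillar collagen, had 1.1 in aggregated and -3.61 in undifferentiated cells, Pdgfrb differed by 2.91, Prrx1 by 3.79 and Thy1 by -1.91, and Col1a1 and Dcn lay within 2-fold. Of 6 endoderm markers 4 were well above background in aggregated or undifferentiated cells, all at levels of -1.94 or less, Sox7 was at least 3.46-fold higher, and Afp and Ttr were not well above background on either array. Of 7 muscle markers 3 were detected in aggregated and 5 in undifferentiated cells, and none was higher. Actc1 and Nkx2-5 were lower, by -2.23 and -1.04. Of 6 glial markers 4 were detected in both states and all 4 lay within 2-fold, while Gfap and Aqp4 were not well above background on either array. Of 5 endothelial and blood markers, Hbb-bh1 was detected in aggregated cells alone (-5.41) and Gata1 in undifferentiated cells alone (-5.30), both within 2-fold by their bounds. Pecam1, Cdh5 and Ptprc were not well above background on either array. Of 4 neural crest markers 3 were detected in both states, and Tfap2a differed by 1.50, Snai2 by -1.23 and Foxd3 by -5.54. Sox10 had no matching probe.

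In the broader lists of these types, neural crest and mesenchyme genes were higher in 10 of 24 and lower in 5, with Tfap2b at 4.80 (0.79 on another probe) and Snai2 at -1.23. Matrix genes were higher in 8 of 30 (12.7% of all genes) and lower in 7 (23.1% of all genes). Their median of -0.04 turns positive when arrays are quantile-normalized, and laminin chains went apart, with 3.56 for Lama1, -2.67 for Lama5 and -3.31 for Lamb1. Endoderm genes were lower in 9 of 21 and higher in 4, and mesoderm and muscle genes lower in 9 of 26 and higher in 3, with Cnn1, a smooth muscle protein, at -4.13. Glial genes were higher in 3 of 11 and lower in 1, with a median of 0.02 that turns negative with another background correction. Endothelial and blood genes were higher in 2 of 14 and lower in 4, a share near that of all genes, with Emcn at least 6.51-fold higher, Kdr at 1.78 and Flt1 at -4.04. What part cells of these types have in the other differences was not tested.

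Of 41 cell cycle genes 8 were higher (12.7% of all genes), 9 lower (23.1% of all genes) and 24 within 2-fold. Their median of -0.25 changes sign when arrays are quantile-normalized or when the median gene is taken as 0. Mki67, of dividing cells, had 5.27 in aggregated and 4.94 in undifferentiated cells. Ccnd2, a cyclin of neural progenitors, had 5.06 in aggregated and 0.47 in undifferentiated cells, a difference of 4.59, while Ccne1 differed by -2.04 and Cdk6 by -3.34 (-1.25 on another probe). E2f2 and E2f1 differed by 3.01 and 2.14, the inhibitor Cdkn2c by 2.53 and Gadd45g by 2.63. Bub1 had the lowest value, -4.44, but -0.47 on another probe. Genes of the p53 response and of apoptosis were lower in 10 of 21 and higher in 1, with a median of -0.67. Trp53 itself differed by -2.07, and its targets Phlda3, Perp and Ccng1 by -3.33, -2.95 and -2.16. The targets Mdm2 and Cdkn1a lay within 2-fold at -0.33 and -0.65, and the lower members included the apoptosis genes Bcl2 (-1.05) and Casp8 (-1.91).

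Genes of low oxygen and glycolysis were higher in 12 of 25 and lower in 1, with a median of 0.55. Ndrg1, a gene of stress and low oxygen, had 4.49 in aggregated and -1.93 in undifferentiated cells, a difference of 6.42. Ddit4, an inhibitor of mTOR, had 7.13 in aggregated and 3.27 in undifferentiated cells, and Vegfa, the vessel growth factor, 3.37 and 0.56 in the same order (a difference of 1.64 on its lowest probe). Pdk1 and Ankrd37 differed by 2.31 and 2.46, whereas the classical target Car9 differed by -1.79 and Adm by -0.68. The glycolytic enzymes Ldha, Pgk1 and Pgam1 lay within 2-fold at -0.04, 0.18 and -0.45. The glucose carrier Slc2a1 differed by 1.11, and the enzymes Gpi1, Pfkl and Pfkp, named after their values were seen, by 1.07, 1.19 and 1.42 (-0.80 on another probe of Pfkp). On the differentiated array Pdk1 had a level of -3.56 and Ldha of 2.87. Pdk1 had 2.20 in aggregated and -0.11 in undifferentiated cells, and Ldha 7.04 and 7.09 in the same order. The cause of these differences was not tested.

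Genes of cholesterol and fatty acid synthesis were higher in 5 of 26 and lower in 2, with Hmgcs1 at 1.60 and Fads2 at 1.58. The list of chaperones and genes of endoplasmic reticulum stress also held the transcription factors Fos, Egr1 and Jun. Of its 24 genes 11 were lower, among them Fos (-1.32) and Egr1 (-1.40), and 2 higher, among them Jun (1.20), with a median of -0.98. Hspb1, a small heat shock protein, had -0.52 in aggregated and 3.23 in undifferentiated cells, and Hspa5, the chaperone BiP, differed by -1.38, while Ddit3 differed by 2.46. Interferon response genes were lower in 7 of 18 and 0 were higher, with Bst2, which tethers viruses to the cell, at -2.65 in aggregated and 3.39 in undifferentiated cells. Imprinted and IGF genes were higher in 7 of 23 (12.7% of all genes) and lower in 5 (23.1% of all genes). The growth factor Igf2 had 4.09 in aggregated and 0.49 in undifferentiated cells, Nnat differed by 3.66 and Igfbp5 by 4.94 (0.89 on another probe). Grb10 (-4.56, with -0.80 on another probe), Phlda2 (-4.40) and Snrpn (-3.75) were lower.

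The amyloid precursor family was followed because the series concerns its intracellular domain. App had 1.42 in aggregated and -0.46 in undifferentiated cells, a difference of 1.88, and its relative Aplp1 differed by 2.18. The secretase Bace1 differed by -0.04, Psenen by -0.13, Aph1a by -0.27 and Psen2 by -1.93, and 5 of 18 measured genes of the list were higher and 2 lower. Ribosomal protein genes lay within 2-fold in 31 of 32, with a median of -0.55, and Rpl30 was the exception at -2.14. Of 16 genes often used as references 13 lay within 2-fold, and Gusb (-1.99), Hprt (-1.26) and Actb (-1.06) were lower.

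**Figure D4:**
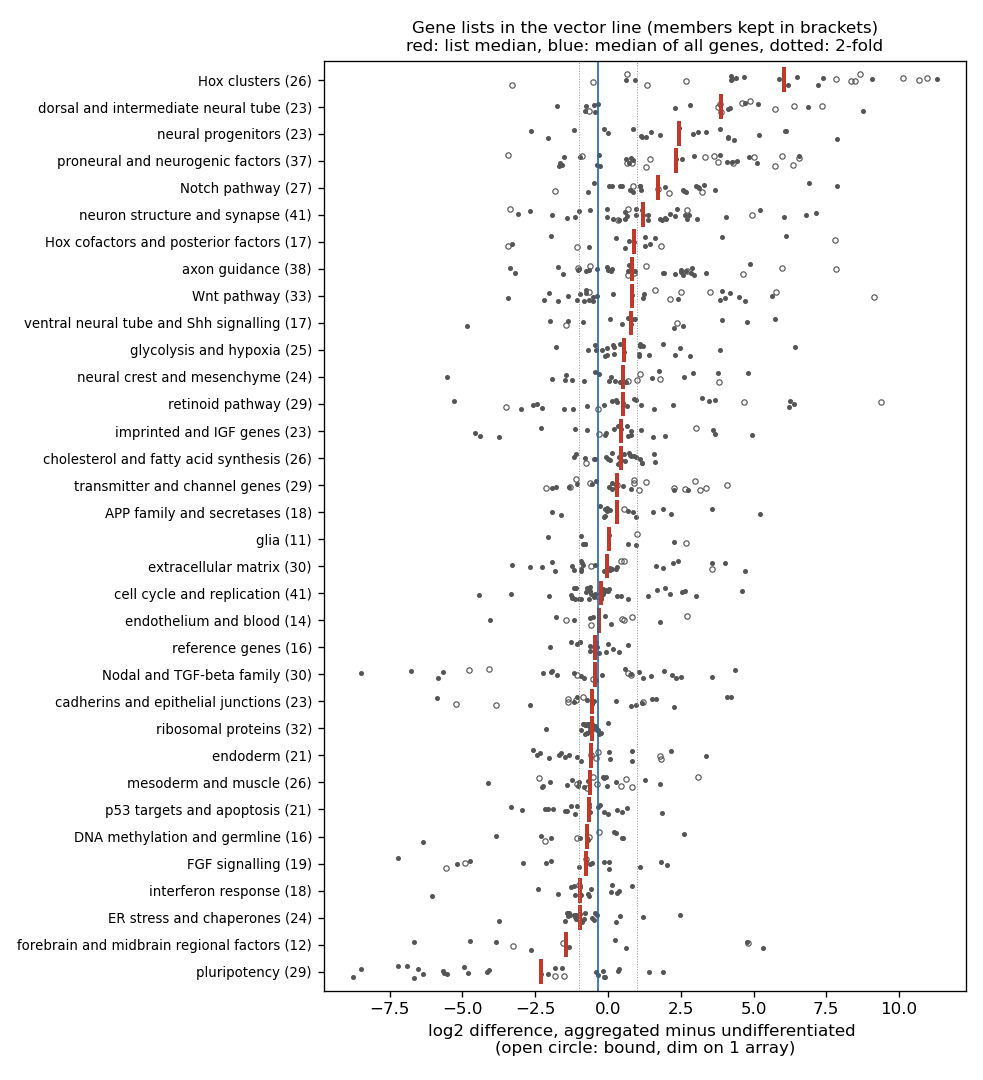
Differences of every measured member of the 34 gene lists, aggregated minus undifferentiated vector cells on the log2 scale (horizontal axis, open circles are bounds), with the median of each list in red, that of all genes (-0.34) in blue and 2-fold as dotted lines. The Hox clusters stand at the top with a median of 6.03 and pluripotency genes at the bottom with -2.29. The medians of the matrix, glia, endothelium and cell cycle lists sit so near 0 that their sign depends on the processing.

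The same step in the AICD line gives these measurements in other cultures, on the same slides. Of these genes 12978 were also measured there, and 1493 (11.5%) were at least 2-fold higher and 2413 (18.6%) lower in AICD aggregates. The lines shared 1131 higher genes, 66.0% of the vector line's and 75.8% of the AICD line's, and 1910 lower genes, 61.2% and 79.2% in the same order. Genes 2-fold higher in vector aggregates and 2-fold lower in AICD aggregates numbered 25, and the converse 22. Hox genes had a median of 6.03 in the vector and 5.29 in the AICD line. Cyp26a1 differed by 6.22 in the vector and 4.57 in the AICD line, Rarb by 6.39 and 4.39, and Dhrs3 by 6.26 and 4.56.

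Several pluripotency genes had differences further from 0 in the vector line in these single arrays. Pou5f1 differed by -8.77 in the vector and -3.29 in the AICD line, Gdf3 by -8.49 and -3.44, Fgf5 by -7.23 and -1.68 and Nr0b1 by -6.54 and -0.68. Lin28a (-6.90 and -5.52) and Cfc1 (-6.76 and -6.61) were closer. Hes5 was not well above background in AICD aggregates and differed by 7.87 in the vector line. Of the 25 glycolysis and low-oxygen genes, 12 were higher in vector and 4 in AICD aggregates. With 1 array in each line and state, no difference between the lines was tested.

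**Figure D5:**
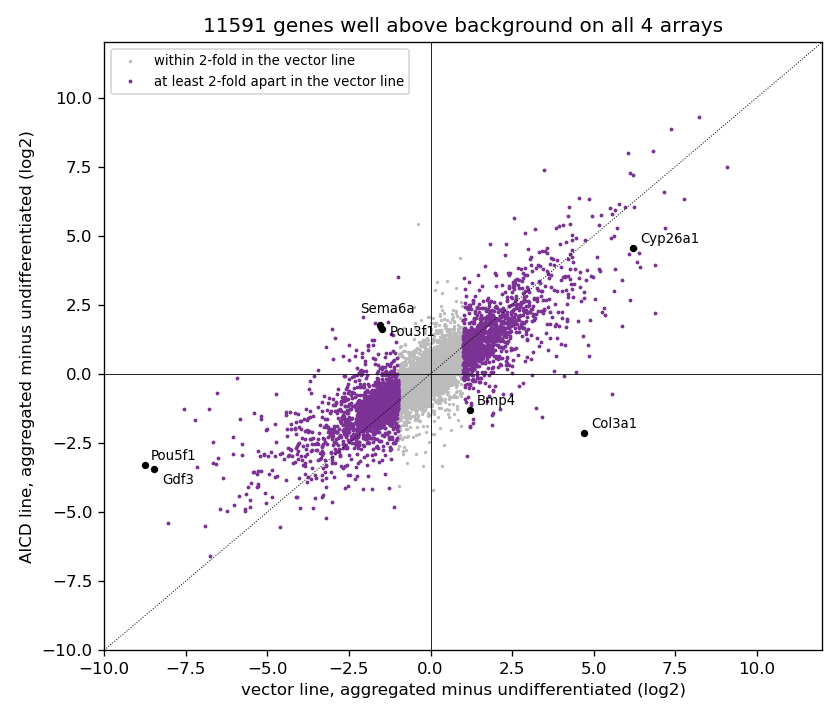
Differences between aggregated and undifferentiated cells in the vector line (horizontal axis) and in the AICD line (vertical axis), on the log2 scale, for the 11591 genes well above background on all 4 arrays, with the dotted line marking equal differences. Cyp26a1 (6.22 and 4.57) is far from 0 in both lines, while Col3a1 and Bmp4 are positive in the vector line alone and Pou3f1 and Sema6a in the AICD line alone.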

How the data were processed

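RNA of 6 samples was measured on 6 Agilent 1-colour arrays. Per the file headers, the authors quantified scans in Agilent Feature Extraction 10.1.1.1; the deposited processed signal is an intensity after background subtraction, not scaled between arrays. The values the authors deposited beside it are a score. Compared with the scans, they are log2 signal scaled to the 75th percentile and centred on each probe's median of 6 arrays, with negative values written as minus their reciprocal and small ones blank. Under that reading its listed values lay within 0.1 of the scanner values in 99.9% to 100.0% of cases per array. The columns' medians ran from 0.967 to 1.2291, and 23271 of its 41252 probes are blank throughout, so it served as an alternative only. The array header names build mm9, and no coordinates were taken from it.

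Spots of a probe were averaged, control spots and outlier spots were left out, and log2 signal was taken minus the log2 of the array's 75th percentile. Of 41147 probes with values, 24814 received a symbol through their accession in RefSeq's GRCm38.p6 table. A gene is read from its brightest probe (mean of the 6 arrays). Python 3.11.15 with numpy 2.4.6 and pandas 2.3.3 was used, and limma 3.58.1 in R 4.3.3 for normexp and its offset of 50. The 34 gene lists, like the comparison, were chosen with earlier results of these data known. The text names the 20 largest differences and 10 largest bounds per direction, key members and up to 5 members per direction of each list, any member of the Hox, retinoid, Notch, Nodal and proneural lists, and cell type markers; Utf1, Dppa4 and Sall4 are markers, and Blvrb, Hbb-y and Tnfsf13b were added for their promoters after their values were seen. The files used hold no mean spot signal, so normexp took the median spot signal. Some genes that this rule names are not reported here. The calling of 2-fold differences was checked on simulated arrays. With 1 array a group, the number of arrays limits the precision.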

Additional observations from a re-analysis of the deposited data

Results flagged for a closer look

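In 4 named genes measured on all 4 arrays, the step to aggregates went at least 2-fold one way in the vector line and at least 2-fold the other way in the AICD line. Col3a1, a fibrillar collagen, differed by 4.72 in the vector and -2.16 in the AICD line (log2, aggregated minus undifferentiated). Bmp4, a signal of dorsal tissue, differed by 1.20 in the vector and -1.30 in the AICD line. Pou3f1, a POU factor of early neural cells, differed by -1.50 in the vector and 1.62 in the AICD line. Sema6a, a membrane-bound guidance cue, differed by -1.56 in the vector and 1.79 in the AICD line. Counting bounds, Pdgfrb, a receptor of mesenchyme, differed by 2.91 in the vector line and was at least 2.67-fold lower in AICD aggregates, and the glutamate carrier Slc17a6 was at least 4.35-fold lower in vector aggregates and differed by 4.45 in the AICD line. Each value rests on 1 array a state in each line, and the difference between the lines was not tested.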

How the results depend on the processing

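No paired analysis was possible because each group holds 1 array. Against 1714 higher and 3122 lower genes as reported, the median of the spots in place of the percentile, quantile normalization, no background filter, detection on both arrays and the mean of a gene's probes gave counts within 1.5 times. Normexp background correction gave 1145 higher genes and 2049 lower. Keeping accessions without a symbol as genes gave 3484 higher, and 4574 lower, which stayed within 1.5 times. The authors' deposited values, for the 574 genes listed on both arrays, gave 185 higher and 293 lower. Relative to the median of all genes, an alternative chosen after seeing the data, 2475 were higher, and 1931 lower. The share of higher genes among those called moved by over 10 percentage points under that centring alone (56.2% against 35.4%). Of 355 named genes at least 2-fold apart, 306 kept their 2-fold difference and direction under normexp, 341 under quantile normalization, 348 with the mean of probes and 332 relative to the median gene. Scrt1 turned to -1.03 when detection on both arrays was required, Pou4f1 turned to 1.02 with the mean of its probes, and the median of the neuron structure list turned to -0.57 in the authors' deposited values, which list few of its members. The cause of these moves was not tested beyond the smaller sets of genes or probes that the alternatives themselves use. Medians of some lists changed sign: matrix genes, -0.04 as reported, had 0.08 under quantile normalization, glial genes -0.24 under normexp against 0.02, cell cycle genes 0.11 under quantile normalization against -0.25, endothelial and blood genes 0.03 relative to the median gene against -0.30, and with detection on both arrays Wnt genes had -0.44 against 0.81 and junction genes 0.53 against -0.55. Near background, where folds are bounds, signal limits what can be measured.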
